A study of Mus musculus with 8 samples.

Results

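Heart and liver of the mouse were compared here gene by gene in 4 libraries of total RNA, which are part of a series of 8 libraries from 4 organs. Each of the 2 organs gave 2 libraries, 1 made from a flash-frozen piece and 1 from a piece fixed in 10% formalin and kept in paraffin (FFPE). The labels give the organ and the way it was kept. They give no strain, genotype, sex, age or treatment of the animals, and neither the number of animals behind a library nor any pooling is stated. Of the 27179 genes of the deposited table, the 13377 with a log2 value above 0 in at least 2 of the 4 libraries were compared. The deposited values are log2 reads per 1000000 (CPM) with 0.5 reads added, taken over the library's read total multiplied by a scaling factor. A value of 0 is thus about 1 CPM, and a difference of 1 is a doubling. Reads assigned to genes numbered 20526813 and 15848065 in frozen and FFPE heart, and 13716870 and 15619829 in frozen and FFPE liver. At these depths 3 reads, taken as the detection floor, stand for 0.207 to 0.292 CPM.

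The heart is a muscle that contracts without rest. Its cardiomyocytes are packed with sarcomeres, the repeating units in which myosin of the thick filament pulls on actin of the thin filament, and calcium released from the sarcoplasmic reticulum starts each beat. It burns mainly fatty acids in a dense population of mitochondria and takes up ketone bodies and lactate made elsewhere. The liver is a secretory and metabolic gland. Its hepatocytes make most plasma proteins, clotting factors and lipoproteins, dispose of nitrogen as urea, make bile acids, modify foreign compounds with cytochrome P450 and conjugating enzymes, and release glucose and ketone bodies into blood.

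Each gene's heart minus liver difference was fitted with limma with preservation as a block, so that frozen heart was set against frozen liver and FFPE heart against FFPE liver. A gene was called higher in an organ at a Benjamini-Hochberg adjusted p under 0.05 over all genes tested, and differences are given as log2 heart minus liver ± the standard error of the fit. Of the 13377 genes, 7491 (56%) were called. Heart was higher for 3679 genes (27.5%) and liver for 3812 (28.5%), and the median difference over all genes tested was −0.07. With CPM over plain read totals, without the deposited scaling factors, the median moved by −0.38 and the split became 2700 genes higher in heart and 4550 higher in liver. A difference near 0 is therefore relative to the scaling. With 1 library per organ and preparation, p-values measure only the spread between these libraries, since the labels do not tie them to separate animals. The fit had 1 residual degree of freedom per gene beside 14.79 prior degrees of freedom from the trend over all genes. Standard errors and p-values therefore rest mostly on that trend and are not a gene's own observed spread. Where a library is said below to be left out, the fit used all other libraries of the series, brain and kidney included. Brain and kidney then share in setting the spread and the preservation term.

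The 2 preparations gave similar differences. Across genes the frozen and the FFPE difference had a Pearson correlation of 0.958 and a Spearman correlation of 0.899, as a description over 13377 genes that share the same 4 libraries and are not independent. Both differences passed 1 in size with the same sign in 2836 of the genes called higher in heart and in 2655 of those called higher in liver. Very large differences were more numerous on the liver side, where 592 genes exceeded 6 log2 units and 237 exceeded 10, beside 377 and 76 on the heart side. The 2 differences stayed under 1 in size in 5519 genes (41.3%). They had opposite signs in 2046 genes, and in 35 of these each exceeded 1 in size. In 2170 of the tested genes both libraries of 1 organ were at a log2 value of 0 or less. Such genes passed the filter through the other organ alone and had to differ, so their number is given beside the count of each list that had any. Where a gene had 0 reads in both libraries of an organ, its fold is given as a lower bound, with 3 reads per library in that organ.

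**Figure D1:**
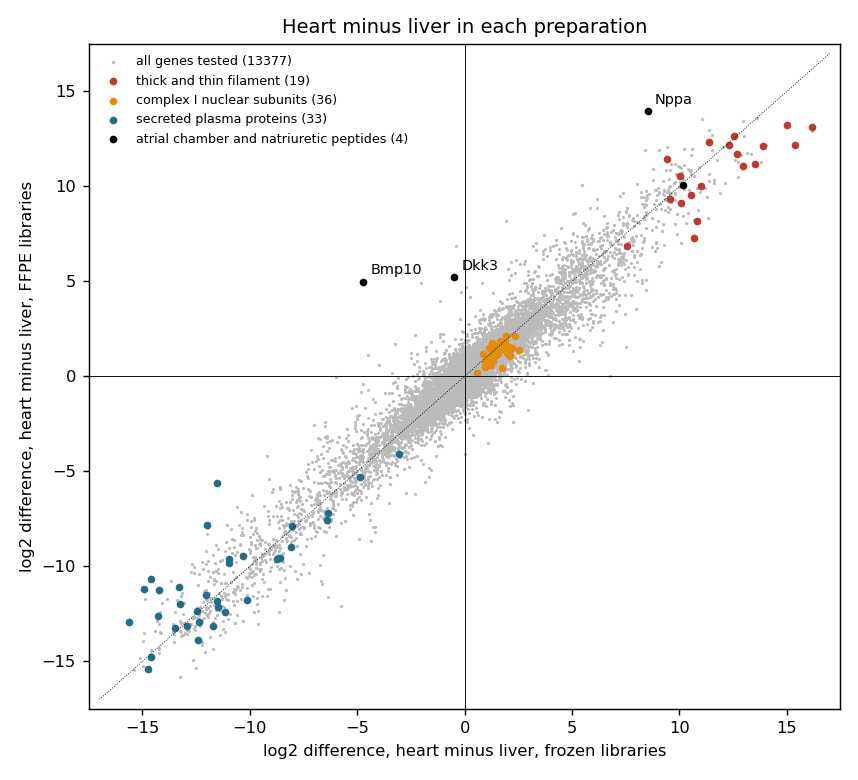
Each point is 1 of the 13377 genes tested, with its heart minus liver log2 difference in the frozen libraries on the horizontal axis and in the FFPE libraries on the vertical axis. Thick and thin filament genes lie at the upper right, secreted plasma proteins at the lower left and complex I subunits just above 0, while Bmp10 and Dkk3, genes of the atria, lie off the dotted line of equal differences.

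The frozen and FFPE libraries of an organ differed from each other in chamber and sex markers, and these values stand beside several results below. Their part in those results was not tested. The ventricular genes Myl2, Myl3 and Irx4 were present in both heart libraries, with 37011 and 20646 reads of Myl2 in frozen and FFPE heart. The atrial genes were not: Nppa, which encodes atrial natriuretic peptide, had 180 reads in frozen heart and 7173 in FFPE heart. Myl7 (atrial regulatory light chain) had 0 and 1590 reads, Myl4 (atrial essential light chain) 5 and 1959, Sln (sarcolipin) 0 and 536, and Bmp10 0 and 706. These atrial RNAs were thus low or undetected in frozen heart and high in FFPE heart. In bulk tissue, fewer cells of a type and less RNA per cell cannot be told apart.

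Sex-linked genes also differed between preparations, in the same way in both organs. Xist, the RNA that coats the inactive X chromosome of female cells, had 7 reads in frozen heart and 3 in frozen liver, against 4652 in FFPE heart and 24213 in FFPE liver. The Y-linked genes Ddx3y, Uty, Kdm5d and Eif2s3y had between 128 and 639 reads in every one of the 4 libraries. RNA with the marks of both sexes was thus present in both FFPE libraries, while the frozen ones had the Y-linked RNAs and almost no Xist. Genes that liver expresses mostly in females moved with this. Cyp2b9 had 1 read in frozen and 4205 in FFPE liver, Cyp2b13 0 and 1249, and Sult3a1 0 and 244. Genes that liver expresses mostly in males were present in both liver libraries, with 5836 and 2983 reads of Elovl3 and 6176 and 3285 of Cyp2d9, and all 12 on the list were higher in liver (10 passed the level filter through liver alone). Of the 5 sex-linked genes 0 were called in either direction, with Ddx3y at −0.13 ± 0.23 (limma adjusted p = 0.667). Xist itself was 1.12 higher in heart among frozen libraries, on 7 and 3 reads, and 2.24 higher in liver among FFPE libraries. It was called higher in liver in 4 other settings, with limma adjusted p-values of 0.0242 for plain read totals, 0.0436 without the level filter, 0.00428 on log2(CPM + 5) and 0.0153 with voom.

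**Figure D2:**
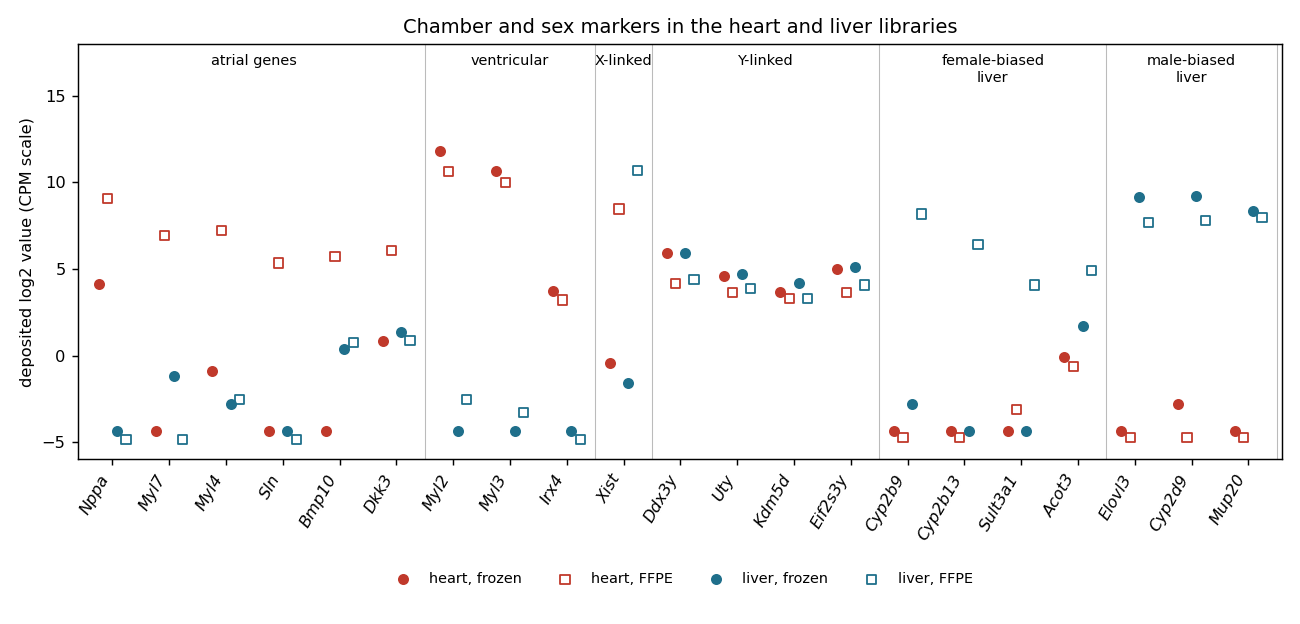
Deposited log2 values on the CPM scale (vertical axis) of chamber and sex markers in the heart (red) and liver (blue) libraries, frozen as filled circles and FFPE as open squares. Open red squares stand far above filled red circles for the atrial genes, and the 2 open squares stand far above the filled circles for Xist, while the Y-linked genes lie between 3.28 and 5.95 in all 4 libraries.

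The genes of the contractile apparatus had the largest median difference in favour of heart among the lists. All 19 tested genes of the thick and thin filament list (20 listed) were called higher in heart, with differences from 7.21 to 14.67 and a median of 11.85. Of these, 15 passed the level filter through heart alone. Myl2, the ventricular regulatory light chain, had log2 values of 11.82 and 10.61 in frozen and FFPE heart, and 0 and 2 reads in the liver libraries. Its difference was 14.67 ± 0.47 (limma adjusted p = 1.48e-13), the largest in favour of heart. Myh6, the fast alpha myosin heavy chain of the adult mouse heart, had 146976 and 186885 reads in heart and 3 and 44 in liver. Its difference was 13.78 ± 0.46, and its limma adjusted p of 2.37e-13 became 0.058 with robust variance estimation. Ttn, the giant spring protein titin, had 324162 and 581825 reads in heart, against 21 and 142 in liver. Ttn alone made up 7.06% and 10.7% of the nuclear protein-coding reads of frozen and FFPE heart.

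Other sarcomere genes differed by similar amounts. Mybpc3, a brake on cross-bridges that is often mutated in inherited cardiomyopathy, had 14475 and 20411 reads in heart and 2 and 3 in liver (difference 12.58 ± 0.25). Actc1, cardiac alpha actin, had 27534 and 35328 reads in heart and 5 and 8 in liver. The slow myosin Myh7 had 1017 and 1434 reads in heart and 0 and 1 in liver, and per kilobase of exon it stood at 11.5 and 12.6 CPM in heart beside 2130 and 2107 for Myh6. Acta1, the skeletal alpha actin, had 336 reads in frozen and 1282 in FFPE heart and 0 in both liver libraries. Tpm1, alpha tropomyosin, had the smallest difference of the list, 7.21, with 172 and 265 reads in liver, where non-muscle cells also use the gene. At the Z-disc and the intercalated disc, which anchor thin filaments and join cardiomyocytes end to end, 20 of 21 genes were higher in heart, with a median of 7.69 (10 passed through 1 organ alone). Actn2, the Z-disc crosslinker alpha-actinin, had 8175 and 10579 reads in heart and 0 and 2 in liver (13.10 ± 0.39), and Xirp2 had 7830 and 9291 against 0 and 2 (12.98 ± 0.40). The exception was Dsg2, a desmosomal cadherin that epithelia share, at −1.44 ± 0.22. Cdh2, N-cadherin, had log2 values of 7.26 and 7.06 in heart and 6.22 and 6.45 in liver, so that the groups did not overlap but lay close (0.82 ± 0.22, limma adjusted p = 0.005, and 0.231 with plain read totals). Together the 41 genes of these lists took 16.4% and 19.8% of nuclear protein-coding reads in frozen and FFPE heart, and 0.0908% and 0.102% in liver.

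Genes of oxygen and energy buffering were of similar size. Mb, which encodes the oxygen store myoglobin, had 36248 and 31984 reads in heart and 0 and 4 in liver, a difference of 14.55 ± 0.48 (limma adjusted p = 2.13e-13). Ckm, the muscle creatine kinase that regenerates ATP next to myosin, had 6089 and 5684 reads in heart and 0 in both liver libraries. It was thus at least 2071-fold higher in heart when 3 reads per library are taken for liver. Ckmt2, the mitochondrial creatine kinase of muscle, had 6991 and 5736 reads in heart and 0 and 2 in liver. Eef1a2, the muscle and neuron form of translation elongation factor 1 alpha, had 3887 and 5146 reads in heart and 0 in both liver libraries, at least 1555-fold higher.

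Genes that carry calcium and the action potential were the next group. Of the 19 tested calcium handling genes, 15 were higher in heart and 2 higher in liver, with a median of 5.70 (7 passed through 1 organ alone). Ryr2, the release channel of the sarcoplasmic reticulum, had 22262 and 36582 reads in heart and 2 and 11 in liver (12.46 ± 0.29). Pln, phospholamban, which restrains the calcium pump, had 21917 and 19501 reads in heart and 0 and 4 in liver (13.83 ± 0.49). Casq2, which buffers calcium in the store, had 3991 and 3692 against 1 and 0, and Hrc, another lumenal calcium binder, 5097 and 4567 against 0 and 1. The pump Atp2a2 was abundant in both organs, at log2 values of 12.88 and 12.52 in heart and 8.36 and 8.46 in liver, and its difference was 4.29 ± 0.39. The members higher in liver were Itpr2, an inositol trisphosphate receptor (−0.97 ± 0.22), and the calmodulin gene Calm2 (−0.62 ± 0.24). Under quantile normalization 0 members were higher in liver.

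All 22 genes of cardiac ion channels and conduction were higher in heart, with a median of 7.70. Here 19 of 22 passed the filter through heart alone. Kcnj3, a subunit of the acetylcholine-gated potassium channel that is richest in atria, had 216 reads in frozen and 580 in FFPE heart and 0 in liver. Kcnj11, the pore of the ATP-sensitive channel, had 447 and 732 against 0, and Popdc2, a cyclic AMP binding membrane protein of conduction tissue, 1252 and 1602 against 1 and 1. Nppb, which encodes B-type natriuretic peptide, had 559 and 486 reads in heart and 0 in liver (10.11 ± 0.55), so it did not share the gap between preparations shown by Nppa. For Nppa the difference was 11.23 ± 0.84, with 8.52 in frozen and 13.95 in FFPE libraries, and its limma adjusted p of 6.76e-09 became 0.0649 with robust variance estimation. Of the 8 genes on the list of atrial and natriuretic genes 4 were tested (2 passed through heart alone), since the others had reads in FFPE heart and hardly any elsewhere. Dkk3 was called (2.36 ± 0.81, limma adjusted p = 0.0209), although it had 18 reads in frozen and 897 in FFPE heart against 26 in each liver library. Its limma adjusted p was 0.578 with robust variance estimation and 0.0982 in the fit over all 8 libraries, and without FFPE heart its difference was −0.09.

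The transcription factors of each organ fell on opposite sides. All 21 tested cardiac factors were higher in heart (median 3.14, 7 passed through 1 organ alone). All 22 hepatic factors were higher in liver (median −7.62, 13 passed through 1 organ alone). In the fit over all 8 libraries 20 cardiac and 21 hepatic factors were called. Myocd, the myocardin coactivator of smooth and cardiac muscle genes, had 517 and 954 reads in heart and 0 in both liver libraries, at least 248-fold higher. Nkx2-5, a homeobox regulator of heart formation, had 168 and 243 against 0, Irx4, a ventricular factor, 136 and 121 against 0, and Tbx5 117 and 396 against 0 and 1. Factors with roles in more tissues lay lower: Gata4, also made in liver, had log2 values of 5.43 and 5.77 in heart and 3.64 and 3.74 in liver (1.91 ± 0.24). On the liver side, Hnf4a, the nuclear receptor that maintains hepatocyte identity, had 4607 and 7359 reads in liver and 0 and 2 in heart (−12.27 ± 0.41). Nr1i3 and Nr1i2, the drug sensors CAR and PXR, had 849 and 1531 and 455 and 1023 reads in liver and 0 in both heart libraries. Creb3l3 had 1405 and 1687 against 1 and 0. Ppara, the fatty acid sensing receptor used by both organs, differed by −1.68 ± 0.22, and its partner coactivator Ppargc1a by 2.42 ± 0.26 in the other direction.

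Promoters of genes with the largest differences are printed to show the sequence next to which these RNAs start. Of the 30 genes named for the largest differences, 26 were searched in the RefSeq promoter table of build GRCm38.p6. Ttr was left out of the search, and the others had no entry of 300 bases. Of those searched, the 3 per organ below were chosen, after their sequences were seen, because the searched motifs lie in them. Each run holds the 200 bases before the first listed start, 5′ to 3′ on the gene's strand, and capitals mark the motif matches. Both strands were searched. In the heart promoters the search took in the MCAT element with the letters CATTCC, which binds factors of the TEAD family. It also took in the CArG box of serum response factor and the MEF2 site, as well as a GATA motif and the TATA box. In the liver promoters it took in the TATA box, whose letters are TATAAA, and a motif of hepatocyte nuclear factor 1 (HNF1). That motif has the letters GTTAAT and is part of a longer palindrome. The C/EBP motif searched was TTNNGCAA.
Myl3 (chr9:110763478-110763677, plus strand): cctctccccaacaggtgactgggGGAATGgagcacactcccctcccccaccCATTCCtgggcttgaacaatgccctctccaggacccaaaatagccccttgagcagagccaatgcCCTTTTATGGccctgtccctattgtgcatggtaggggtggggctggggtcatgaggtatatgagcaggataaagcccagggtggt
Xirp2 (chr2:67445802-67446001, plus strand): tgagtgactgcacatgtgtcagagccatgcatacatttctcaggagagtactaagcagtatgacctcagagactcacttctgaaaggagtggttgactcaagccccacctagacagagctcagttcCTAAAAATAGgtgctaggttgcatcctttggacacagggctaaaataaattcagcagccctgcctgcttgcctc
Mybpc3 (chr2:91117944-91118143, plus strand): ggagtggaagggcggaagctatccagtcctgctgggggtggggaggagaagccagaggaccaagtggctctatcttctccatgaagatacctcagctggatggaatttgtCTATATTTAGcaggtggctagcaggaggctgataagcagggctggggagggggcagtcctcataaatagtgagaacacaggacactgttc
Alb (chr5:90460670-90460869, plus strand): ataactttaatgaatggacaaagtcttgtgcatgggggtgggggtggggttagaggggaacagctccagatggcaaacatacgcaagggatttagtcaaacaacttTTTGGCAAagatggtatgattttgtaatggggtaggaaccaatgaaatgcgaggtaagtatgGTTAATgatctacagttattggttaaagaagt
Fgb (chr3:83049864-83050063, minus strand): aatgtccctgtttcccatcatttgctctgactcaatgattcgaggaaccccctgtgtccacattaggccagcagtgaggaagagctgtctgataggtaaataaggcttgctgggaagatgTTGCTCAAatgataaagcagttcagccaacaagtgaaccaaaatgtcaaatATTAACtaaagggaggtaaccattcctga
Fabp1 (chr6:71199679-71199878, plus strand): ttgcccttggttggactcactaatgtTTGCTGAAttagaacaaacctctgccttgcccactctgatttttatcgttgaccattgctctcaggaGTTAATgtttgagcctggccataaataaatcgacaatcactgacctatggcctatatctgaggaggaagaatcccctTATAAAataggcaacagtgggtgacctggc
Myl3, the ventricular essential light chain, held 2 MCAT matches, 177 and 149 bases before the start, and a CArG match 85 bases before it. Xirp2 and Mybpc3 each held a MEF2 match, 74 and 90 bases before the start. Alb (albumin) held the HNF1 motif 32 and the C/EBP motif 94 bases before the start, Fgb (fibrinogen beta) 29 and 80, and Fabp1 107 and 174, with a TATA box 30 bases before the start. Many of the 26 held no match in these 200 bases. Those of heart were Myl2, Mb, Myh6, Ckm, Eef1a2, Actn2, Ckmt2, Hrc and Ryr2, and those of liver Bhmt, Tat, F2, Tdo2 and Cyp3a11. Of the 27025 RefSeq promoters of 300 bases, 14.6% held an MCAT match, 1.57% a CArG match, 3.26% a MEF2 match, 7.2% the HNF1 motif, 10.8% the C/EBP motif and 14.2% the TATA box, on either strand. These shares cover 250 bases before to 50 after the start, a longer stretch than the 200 bases printed, so the 2 are not like for like. Motif shares were not compared between the organs. Of the genes over 6 log2 units higher in heart 274 of 377 (72.7%) had a promoter entry, and of those higher in liver 442 of 592 (74.7%), which is too few for such a check. A match is a string of letters and not a site shown to be bound.

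Genes of secreted plasma proteins were higher in liver throughout the list. All 33 genes of the plasma protein list were higher in liver, with differences from −15.08 to −3.57 and a median of −11.78, and 24 of them passed the filter through liver alone. Alb, the main protein of plasma, had log2 values of 15.10 and 15.02 in liver and 0.50 and 0.23 in heart. Its reads numbered 366650 and 483059 in liver and 14 and 15 in heart, and its difference was −14.70 ± 0.23 (limma adjusted p = 1.35e-16). Serpina1e, an alpha-1 antitrypsin paralog of rodents, had 41438 and 24100 reads in liver and 1 and 0 in heart (−15.08 ± 0.29), and reads of its near-identical neighbours may have been shared among them in counting. Ttr, the thyroxine and retinol carrier transthyretin, had 25815 and 21519 reads in liver and 0 and 2 in heart. The smallest difference was that of Cp, the copper oxidase ceruloplasmin, at −3.57. Hamp, which encodes the iron hormone hepcidin, had 1512 and 1390 reads in liver and 0 and 25 in heart (−8.59 ± 0.82, limma adjusted p = 1.47e-07, and 0.213 with robust variance estimation). Trf, transferrin, had 346 and 204 reads in heart beside 96175 and 115499 in liver.

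Lipoprotein genes behaved alike. Of the 22 apolipoprotein and lipoprotein assembly genes, 21 were higher in liver and none in heart, with a median of −10.08 (14 passed through 1 organ alone). Apob, the structural protein of very low density lipoprotein, had 115421 and 154002 reads in liver and 4 and 6 in heart (−14.51 ± 0.22, limma adjusted p = 1.19e-16, the smallest of all genes). Apoc1 had 12332 and 16244 reads in liver and 0 in both heart libraries, at least 4430-fold higher in liver. Apoe, which macrophages and other cells make too, had 1509 and 1013 reads in heart and a smaller difference, −5.77 ± 0.31. The member not called was Pltp, the phospholipid transfer protein (−0.47).

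In the clotting cascade, most factors are made by hepatocytes and some by vessel wall or blood cells. Of 31 genes, 24 were higher in liver and 7 higher in heart, with a median of −10.53 (24 passed through 1 organ alone). Fgb had 21591 and 24790 reads in liver and 0 in both heart libraries. Its difference, −15.42 ± 0.31, was the largest of all genes tested, and corresponds to at least 7272-fold more in liver. F2 (prothrombin) had 9868 and 11578 against 0, and Plg (plasminogen) 14672 and 23302 against 2 and 0. The genes higher in heart included F13a1 (factor XIII A, a macrophage product, 7.53), Plat (tissue plasminogen activator, 4.46), Vwf (von Willebrand factor of endothelium, 3.39), Thbd (thrombomodulin, 3.36), Tfpi (2.47) and F3 (tissue factor, 2.07). F8, which sinusoidal endothelium of the liver makes, was higher in liver at −3.51. Of 26 tested complement genes 20 were higher in liver and none in heart (median −6.71, 14 passed through 1 organ alone). C8a had 6090 and 6556 reads in liver and 0 in heart, whereas the macrophage genes C1qa, C1qb and C1qc differed by 0.17, −0.10 and 0.17 and were not called, nor were Cfp, Cd59a and Cd46. All plasma lists together took 21.9% and 21.3% of nuclear protein-coding reads in frozen and FFPE liver and 0.316% and 0.254% in heart.

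Enzymes that modify and excrete compounds were also higher in liver. Of 30 cytochrome P450 genes, 27 were higher in liver and 1 in heart, with a median of −11.99 (21 passed through 1 organ alone). Cyp2c29 had 9730 and 13284 reads in liver and 0 in both heart libraries (at least 3557-fold higher in liver), and Cyp3a11, the main drug-induced form, 48120 and 44703 against 1 and 3. Cyp2e1, which oxidises ethanol, had 33823 and 47820 against 6 and 9. The member higher in heart was Cyp1b1, an extrahepatic form, with 87 and 79 reads in heart and 2 and 20 in liver (3.62 ± 0.62). Cyp20a1 and Cyp4b1 were not called. Of 30 phase II genes, whose enzymes attach glucuronate, sulfate or glutathione, 29 were higher in liver (median −4.67, 14 passed through 1 organ alone). The glucuronosyltransferases Ugt2b1, Ugt2b5 and Ugt2b36 had 3487 to 4884 reads in liver and 0 in heart. Gstm2 lay at −0.04 and was not called. Bile acid synthesis and transport genes were all higher in liver, 21 of 21, with a median of −10.96 (16 passed through liver alone). Cyp7a1, the rate-limiting enzyme of bile acid synthesis, had 2415 and 3976 reads in liver and 0 in heart, and Abcc2, a canalicular export pump, 4832 and 8388 against 0 and 2.

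Nitrogen and amino acid metabolism showed the same direction. Of the 34 urea cycle and amino acid breakdown genes, 33 were higher in liver, with a median of −9.85 (23 passed through 1 organ alone). Cps1, which fixes ammonia at the start of the urea cycle, had 47248 and 55878 reads in liver and 2 and 4 in heart. Bhmt and Mat1a, of methionine metabolism, had 16369 and 21151 and 13089 and 26153 reads in liver and 0 in heart, and so were at least 5826-fold and 5883-fold higher. Tat, which breaks down tyrosine, had 16583 and 25431 against 0 and 1, and Tdo2, the first step of tryptophan breakdown, 9828 and 11067 against 0. The smallest called differences were those of Slc25a13 (−1.55) and Glul, glutamine synthetase (−1.76), and Sdsl was not called. Branched-chain amino acid breakdown, which muscle begins and liver can complete, was different. Of its 19 genes 3 were higher in heart and 12 in liver, with a median of −0.82. Higher in heart were Bckdk (2.01 ± 0.27), the kinase that switches off the branched-chain keto acid dehydrogenase, Bcat2 (1.52 ± 0.27), the transaminase of the first step, and Auh (0.72). Higher in liver were later steps, led by Aldh6a1 (−1.82 ± 0.23) and Pccb (−1.35 ± 0.22). Under quantile normalization the counts were 5 and 6.

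Glucose output and fructose use favoured liver in 17 of 19 genes (median −6.03, 7 passed through 1 organ alone). G6pc, which frees glucose from its phosphate, had 4786 and 6202 reads in liver and 0 in heart, and Pck1, which opens gluconeogenesis, 15555 and 27765 against 0 and 7. Pck2, the mitochondrial form, was higher in heart (1.90 ± 0.42). Fat and sterol synthesis also favoured liver. Of 18 lipogenesis genes, 12 were higher in liver and 2 in heart (median −2.21). Scd1, which makes monounsaturated fatty acids, had 53237 and 77285 reads in liver and 129 and 151 in heart (−8.76 ± 0.24). Its paralog Scd2 was higher in heart (1.25), and with plain read totals 0 genes of the list were. All 19 cholesterol synthesis genes were higher in liver, with a median of −4.39 and the smallest difference for Mvk (−1.90). Of the 19, 2 passed through liver alone, and Sc5d, for example, had 76 and 80 reads in heart beside 4066 and 6198 in liver. Of 22 tested peroxisomal genes 21 were higher in liver (median −4.49, 7 passed through 1 organ alone), among them Uox, the urate oxidase, with 8139 and 9365 reads against 1 and 1. Crat, carnitine acetyltransferase, was higher in heart (2.47). Of 21 genes of iron and heme, 14 were higher in liver and 3 in heart (median −1.37, 3 passed through 1 organ alone). Tmprss6 (−11.11) and Tfr2 (−11.00), which set hepcidin output, stood beside Hamp on the liver side. Higher in heart were Bmp6 (2.40), Hjv (0.80) and Tfrc, the transferrin receptor (0.72), but with plain read totals, or without frozen liver, 1 gene was higher in heart. Hamp2, a copy of Hamp, had 41 reads in frozen and 1731 in FFPE liver and 0 in heart.

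**Figure D3:**
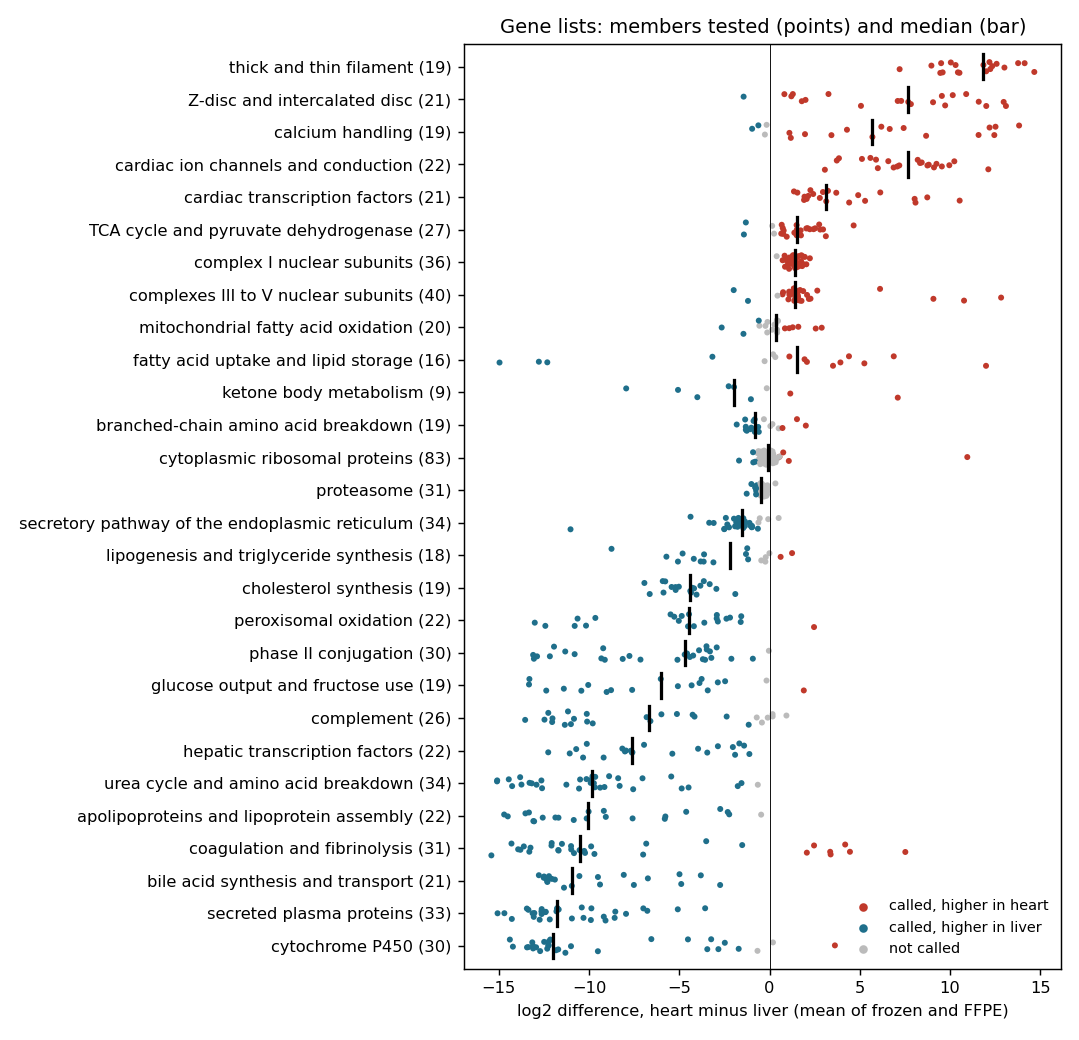
Heart minus liver log2 difference (horizontal axis) of the tested members of 28 gene lists, 1 row per list with the number tested in brackets. Points are genes, red where called higher in heart, blue where called higher in liver and grey where not called, and the black bar is the list's median, which runs from 11.85 for the thick and thin filament to −11.99 for cytochrome P450.

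In the use of fuels the organs overlapped more. Of 16 genes of fatty acid uptake and lipid storage 9 were higher in heart and 4 in liver, with a median of 1.52 and a range from −14.97 to 12 (4 passed through 1 organ alone). Lpl, which frees fatty acids from lipoproteins at the capillary wall, had log2 values of 11.48 and 10.80 in heart and 4.44 and 4.08 in liver (6.88 ± 0.23). The transporter Cd36 had 9.93 and 9.18 in heart and 4.73 and 5.58 in liver (4.40 ± 0.30). Fabp3, which carries fatty acids in the heart's cytosol, had 9171 and 6118 reads in heart and 1 and 2 in liver, whereas Fabp1, the liver carrier, had 18180 and 15748 reads in liver and 0 in heart. The 4 higher in liver were Fabp1, Slc27a2 and Slc27a5, which activate fatty acids, and Plin2, a lipid droplet coat (−3.17 ± 0.23).

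In mitochondrial beta-oxidation, 6 of 20 genes were higher in heart and 3 in liver and 11 were not called, beside 56% called among all genes (1 passed through 1 organ alone). The list's median was 0.37. The trifunctional protein subunits Hadhb (2.56 ± 0.22) and Hadha (1.28 ± 0.26) and the dehydrogenases Acadl (1.59 ± 0.25) and Acadm (1.09 ± 0.26) were higher in heart. Cpt1a, which liver uses to admit long-chain fatty acids, was higher in liver (−2.65 ± 0.22). The balance of this list rests on the scaling: under quantile normalization 13 genes were higher in heart, and with plain read totals the median was −0.01. Cpt1b, the muscle form, was higher in heart (2.89 ± 0.50) on 51 and 71 reads, few for a gene that muscle uses heavily. Its span overlaps that of a second RefSeq gene, Gm44502, so reads may have been lost in counting and its level is uncertain.

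Ketone bodies pass from liver to heart. Of 9 genes of ketone body metabolism 2 were higher in heart and 6 in liver, with a median of −1.97 (1 passed through 1 organ alone). Oxct1, without which ketone bodies cannot be burned, had 7210 and 5764 reads in heart and 47 and 51 in liver (7.11 ± 0.22). The monocarboxylate carrier Slc16a1 was also higher in heart (1.15 ± 0.22). Bdh1, which interconverts the main circulating ketone bodies, was higher in liver (−1.97), and Acat1 was not called (−0.15).

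The final oxidation steps were higher in heart almost throughout, by a few fold. Of 27 genes of the tricarboxylic acid (TCA) cycle and pyruvate dehydrogenase 23 were higher in heart and 2 in liver (median 1.5, 2 passed through 1 organ alone). Idh3a, of isocitrate dehydrogenase, had log2 values of 7.91 and 7.44 in heart and 4.63 and 4.48 in liver (3.12 ± 0.22). Ogdh (2.75), Cs (2.52) and Pdha1 (2.44) followed. The pyruvate dehydrogenase phosphatase Pdp1, which switches the complex on, was 4.66 ± 0.41 higher in heart, and so was the kinase Pdk4, which switches it off (2.97 ± 0.24). Higher in liver were Suclg2, the GTP-forming subunit of succinyl-CoA ligase (−1.42), and the phosphatase Pdp2 (−1.31). Of 36 nuclear genes of complex I 35 were higher in heart and none in liver, within a narrow range of 0.40 to 2.23 and with a median of 1.41. Of 40 genes of complexes III to V 37 were higher in heart (median 1.42), and the 2 higher in liver were the ubiquitous oxidase forms Cox6a1 (−1.99) and Cox8a (−1.20). Of these, 4 genes of complexes III to V and none of complex I passed through 1 organ alone. With plain read totals the medians of the TCA, complex I and complex III to V lists were 1.12, 1.03 and 1.04. With quantile normalization they were 2.01, 1.81 and 2.0, so the medians kept their sign under both scalings. The numbers called higher in heart were 16, 27 and 34 with plain read totals and 24, 36 and 37 with quantile normalization. Without the mean-variance trend of the fit they were 17, 30 and 33.

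RNAs from the mitochondrial genome itself did not follow as clearly. Of 13 mitochondrial mRNAs 4 were called higher in heart, ATP8 (2.23 ± 0.37), COX2 (2.20 ± 0.26), ND4L (1.66 ± 0.40) and ATP6 (1.32 ± 0.26), and none in liver, with a median of 1.08. ATP8 overlaps ATP6, and ND4L overlaps ND4, so their counts are uncertain. Summed over the 13, CPM was 73183 and 72851 in frozen and FFPE heart and 24555 and 51247 in frozen and FFPE liver. On this scale the liver libraries differed from each other more than those of heart. As shares of all reads, without the scaling factors, the 13 took 3.66% and 6.06% in heart and 1.86% and 4.76% in liver. Without FFPE liver 10 of the 13 were called higher in heart, and without FFPE heart 11. Without frozen heart 2 were higher in heart and 2 in liver. Mitochondrial ribosomal RNA took 55.6% and 45.2% of all reads in heart and 27.7% and 38% in liver.

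**Figure D4:**
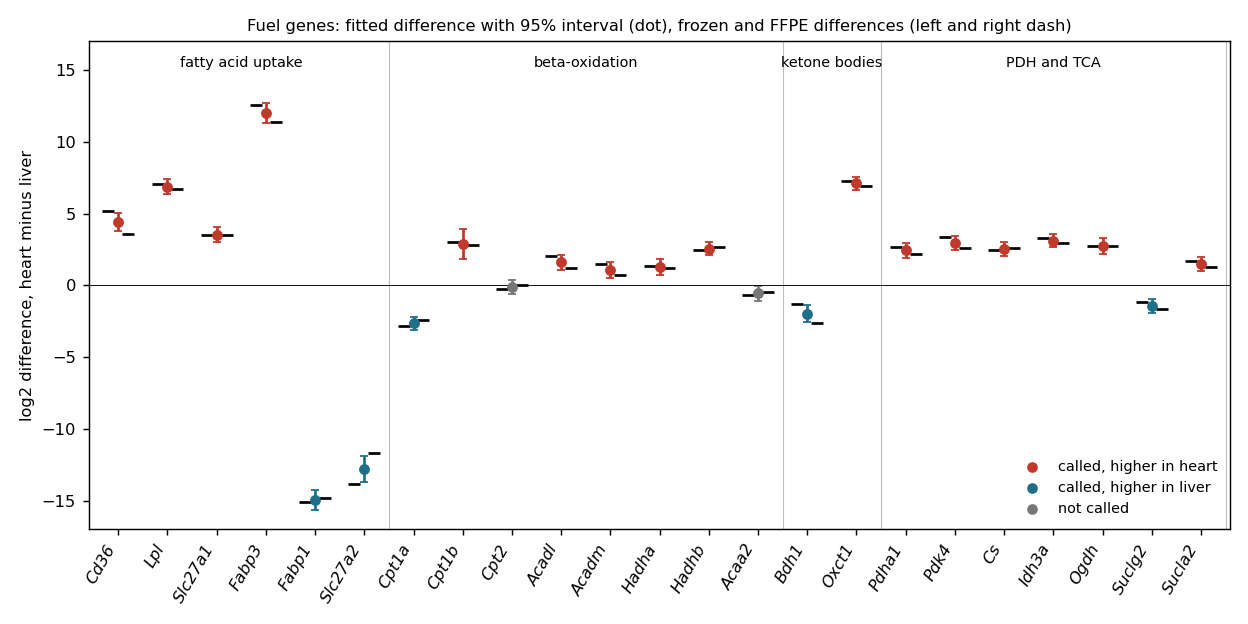
Heart minus liver log2 difference (vertical axis) of genes of fatty acid uptake, beta-oxidation, ketone bodies and the pyruvate dehydrogenase and TCA steps, with the fitted value and its 95% interval as a dot with bars and the frozen and FFPE differences as the left and right dashes. Fabp3 and Oxct1 stand at 12 and 7.11, Fabp1 at −14.97, and the TCA genes shown lie within 3.12 of 0.

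Many of these steps are served by gene pairs, with a muscle-type and a liver-type or general member. In 29 such pairs the muscle-type gene was higher in heart in 28, and the liver-type gene higher in liver in 25, with both true in 24. Among all genes tested, 27.5% were higher in heart and 28.5% higher in liver. Some pair members had to differ: Slc2a4, for example, passed the level filter through heart alone and Slc2a2 through liver alone. The number of such members was not counted, and the pairs were chosen with earlier results of these data known. To compare levels within a pair, the muscle-type share of the pair's CPM per kilobase of exon was taken. Glucose entered by different carriers: Slc2a4, the insulin-driven transporter, made up 99.7% and 100% of the pair with Slc2a2 in frozen and FFPE heart, and 0.149% and 0.219% in liver. Glycogen synthase (Gys1 and Gys2) and phosphorylase (Pygm and Pygl) each switched from at least 98.7% muscle type in heart to at most 4.32% in liver. In glycolysis, Aldoa, Eno3, Pkm and Pgam2 made up 97.5% to 100% of their pairs in heart and 0% to 6.44% in liver.

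Lactate dehydrogenase and phosphofructokinase were less clean. Ldhb, the heart form that favours lactate use, made up 86.1% and 81.5% in heart and 1.46% and 1.31% in liver. Its difference was 8.06 ± 0.24, while the partner Ldha was at log2 values of 7.50 and 7.25 in heart and 8.16 and 7.45 in liver and was not called (−0.43 ± 0.24, limma adjusted p = 0.130). Pfkm made up 93.6% and 92.3% in heart and still 50.2% and 45.6% in liver. Pfkl, the form named for liver, was itself higher in heart (1.22 ± 0.25). In acetyl-CoA carboxylase, Acacb, whose product malonyl-CoA restrains fatty acid oxidation, made up 98.1% and 98.4% in heart but also 75.7% and 72.9% in liver. It was called at the edge (0.61 ± 0.25, limma adjusted p = 0.0489) and not called in the fit over all 8 libraries (0.0741). Among respiratory chain forms, Cox6a2 made up 95.6% and 93.8% of its pair in heart and had 0 reads in both liver libraries. Cox7a1 made up 70.9% and 74.2%, and its partner Cox7a2 was also higher in heart (1.05 ± 0.22). The adenine nucleotide translocator Slc25a4 made up 93.0% and 94.2% in heart and 1.32% and 1.47% in liver.

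Outside metabolism, Gja1, the connexin of cardiac gap junctions, made up 99.7% and 100% of its pair with Gjb1 in heart and 0.223% and 0.341% in liver. Desmin (Des) and keratin 18 (Krt18), the intermediate filaments of muscle and of hepatocytes, divided likewise. Cdh2 made up 99.9% of the cadherin pair in both heart libraries, and in liver shared the pair with Cdh1 at 38% and 41.8%. Plin5, a droplet coat of oxidative tissue, was the muscle-type gene that was not called (0.32 ± 0.23, limma adjusted p = 0.261), with log2 values of 5.54 and 5.07 in heart and 4.97 and 4.99 in liver.

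**Figure D5:**
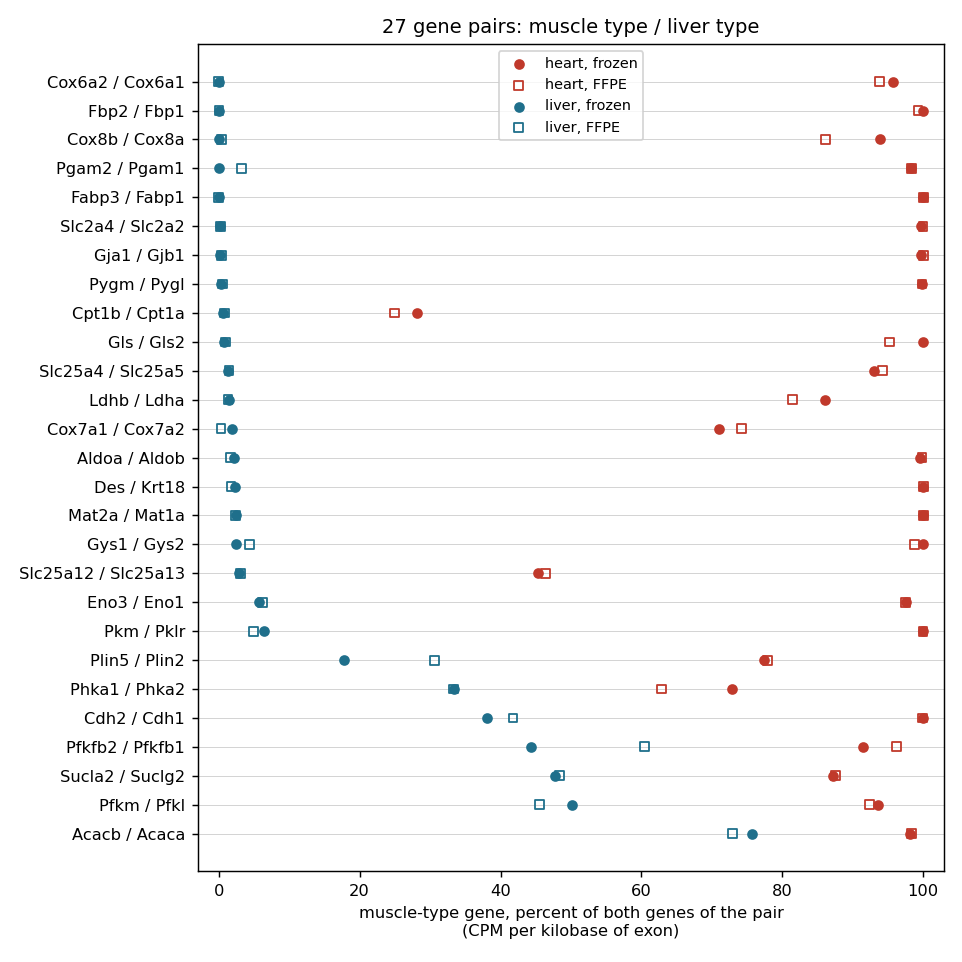
Share of the muscle-type gene in the summed CPM per kilobase of exon of each of 27 of the gene pairs (horizontal axis, percent), 1 row per pair, with heart in red and liver in blue, frozen as filled circles and FFPE as open squares. Most pairs stand near 100 in heart and near 0 in liver, while Cpt1b and Slc25a12 reach only 25.0% to 46.3% in heart, and Acacb stays at 72.9% and 75.7% in liver.

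Few genes of the ribosome differed. Of 83 tested cytoplasmic ribosomal protein genes 4 were higher in heart and 4 in liver, with a median of −0.08, beside 56% called among all genes (1 passed through 1 organ alone). With quantile normalization 15 were higher in heart and 1 in liver, and with plain read totals 1 and 15. The number higher in liver was 10 without frozen heart and 8 without FFPE heart, and the number higher in heart was 2 without FFPE liver. An exception in size was Rpl3l, a striated muscle form of ribosomal protein L3, with 936 and 947 reads in heart and 0 in both liver libraries, at least 330-fold higher. Its general form Rpl3 was higher in liver (−0.79 ± 0.25). Of 31 proteasome genes 10 were higher in liver and none in heart (median −0.47), beside 28.5% and 27.5% of all genes tested. Under quantile normalization the count was 2 in liver and 1 in heart. It was 17 in liver with plain read totals, 16 without FFPE heart and 6 without FFPE liver. The secretory pathway of the endoplasmic reticulum favoured liver more widely, in 30 of 34 genes with a median of −1.55 (1 passed through 1 organ alone). P4hb (−3.10 ± 0.24) and Pdia4 (−3.35 ± 0.24), which form disulfide bonds, had log2 values of 9.62 and 9.43 and 8.20 and 7.91 in liver. Hspa5, the main chaperone there, was at 10.18 and 9.66 in liver and 8.97 and 7.70 in heart. Mia2, which loads large cargo such as lipoproteins, had 859 and 1422 reads in liver and 0 in heart. Among abundant nuclear genes with a difference under 0.5 in both preparations, those with the highest log2 values included Hsp90ab1, Hdlbp, Huwe1, Ddx5, Kif1b and Myh9, at log2 values of 7.80 to 9.61.

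Other cell types of each organ left their own marks. Blood vessel genes were higher in heart: 14 of 15 general endothelial genes were called, with a median of 2.15, and none was higher in liver. Pecam1 had log2 values of 6.81 and 6.84 in heart and 4.19 and 3.86 in liver (2.80 ± 0.23). The capillary genes of heart were higher there in 9 of 9, of which 5 passed the level filter through heart alone. In the fit over all 8 libraries 7 of them were called. Car4 had 94 and 105 reads in heart and Tcf15 82 and 120, against 0 in both liver libraries. Genes of the liver sinusoid, whose endothelium has open pores and clears waste from blood, were higher in liver in 11 of 13 (6 passed through 1 organ alone). Stab2, a scavenger receptor of these cells, had 1194 and 1845 reads in liver and 5 and 8 in heart (−7.68 ± 0.32), and Oit3 had 283 and 246 against 0. Stab1 (0.27) and Lyve1 (0.61), which other macrophages and lymphatic vessels also carry, were not called.

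Macrophage genes separated into general and resident ones. Of 14 general macrophage genes 2 were higher in heart, Cx3cr1 (2.41) and Lyz2 (1.12), and 2 in liver, Mertk (−1.17) and Cd68 (−1.25), with a median of −0.14 (1 passed through 1 organ alone). Without frozen heart or without frozen liver the counts were 1 and 1, and without either FFPE library 1 was higher in liver. Cd68 was called at a limma adjusted p of 0.0407 and not called in the fit over all 8 libraries (0.0573). Genes of Kupffer cells, the resident macrophages of liver, were higher in liver in 5 of 7, of which 4 passed the level filter through liver alone, with Clec4f at 662 and 667 reads against 2 and 1 and Cd5l at 447 and 526 against 0 and 2. Markers of lymphocytes and granulocytes were nearly absent: of 15 genes only Ptprc passed the filter, and it was not called (−0.44 ± 0.31). Fibroblast and matrix genes were higher in heart in 16 of 17 (median 2.83, 2 passed through 1 organ alone), led by Vcan (6.82) and Mgp (5.88), as were 8 of 9 tested smooth muscle and pericyte genes (1 passed through 1 organ alone), with Mylk higher in liver (−1.66). Stellate cell genes were higher in liver in 9 of 12 (3 passed through 1 organ alone), with Lrat, which stores retinol as esters, at 248 and 447 reads against 6 and 5. Pdgfrb and Rgs5 of the same list, which heart pericytes share, were higher in heart. Globin and red cell genes were higher in heart in 6 of 6 (median 4.83, 2 passed through heart alone). Hbb-bs had 14229 and 11840 reads in heart and 450 and 424 in liver, so the heart libraries held more red cell RNA, whose part in other differences was not tested. Fast skeletal muscle genes were at 98 reads or fewer in each library except Myl1, which had 68 and 190 reads in heart. Of other lists, 4 of 7 epicardial genes were tested, all 4 passed the level filter through heart alone and so had to differ, and without frozen heart 2 were called. Among them Tbx18 had 31 and 62 reads in heart against 0 in liver. Among bile duct genes 3 of 9 were tested (1 passed through liver alone) and were called higher in liver, with Spp1 at 125 and 327 reads against 0 and 1. The others, Prom1 and Sox9, lost their calls without frozen heart and without frozen liver, while Krt7 and Krt19 did not pass the filter. Of the 10 nerve genes 1 was tested, which passed through heart alone, and of the fat cell list only Cidea (7.48, higher in heart, where alone it passed the filter) and Pparg (0.36, not called) were tested. Without frozen heart the limma adjusted p of Cidea was 0.0515. Of the pancreas and gut list Fabp2 (−9.07) and Cela1 (−7.29) were tested and higher in liver, through which alone they passed, and of the 5 lung genes none was tested.

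The labels give neither the time of day nor the feeding state at which organs were taken, to which some genes respond. Of 18 tested clock genes 5 were higher in heart and 6 in liver (median −0.53, 2 passed through 1 organ alone). Among all genes tested the shares were 27.5% and 28.5%, which also stand beside the lists that follow in this paragraph. With plain read totals 1 clock gene was higher in heart and 11 in liver. The number higher in heart was 3 without FFPE heart, without frozen liver or without FFPE liver. Bhlhe41 was higher in heart (4.26 ± 0.66), and Rora was higher in liver (−1.87 ± 0.26). The oscillator genes Arntl (−0.55) and Clock (−0.43) were not called. Of 14 immediate early genes 8 were higher in heart, led by Klf4 (5.06 ± 0.37), Klf2 (2.68 ± 0.26) and Nr4a1 (2.57 ± 0.40), and Zfp36 was higher in liver (−2.83 ± 0.28), while 2 passed through 1 organ alone. Without frozen heart 5 were higher in heart, and the limma adjusted p of Nr4a1 was 0.0614. Fos was called at the edge (1.33, limma adjusted p = 0.0474), and Egr1 was not called (0.37). Of 12 fasting and glucocorticoid genes 4 were higher in heart and 4 in liver (1 passed through 1 organ alone), and without either heart library 2 were higher in heart. Igfbp1, a liver hormone carrier that rises in fasting, had 1058 and 1950 reads in liver and 0 in heart. Mt1, a metallothionein, was called higher in heart (2.05 ± 0.53), with 12 reads in frozen and 236 in FFPE liver, and without frozen liver its difference was 0.10. Its limma adjusted p of 0.00373 became 0.388 with robust variance estimation.

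Some of the genes with large differences in favour of liver were neighbours on the chromosome. Genes over 3 log2 units apart were followed along the chromosome, and runs of at least 4 genes in the same direction, with gaps of at most 100000 bases, were listed. Such runs held 151 of the 1211 liver genes (12.5%) in 28 runs, and 8 of the 1283 heart genes (0.624%) in 2 runs. The longest was the serpin cluster, 17 genes at chr12:103532250-104414334 in build GRCm38.p6, with differences from −15.08 to −3.68. The next was a Cyp2c cluster of 8 genes at chr19:39229254-39886769 (median −9.51). Others held the apolipoproteins Apoa1, Apoc3, Apoa4 and Apoa5 at chr9:46228630-46271921 (median −13.21) and Apoc2, Apoc4, Apoc1 and Apoe at chr7:19671579-19701310 (median −10.44). These are mostly duplicated families, in which reads of near-identical copies can be lost or shared in counting, so the value of each copy is uncertain. The Ugt1a genes at chr1:88070779-88220002 share exons and cannot be counted apart. In heart, the myosin locus at chr14:54916543-54994626 held Efs, Myh6, the antisense RNA Mhrt and Myh7. Myh6 and Mhrt lie on opposite strands there, and whether counting used strand is not known here, so their reads cannot be told apart. The other heart run, E530011L22Rik, Zfp651, Klhl40 and Hhatl at chr9:121756640-121792507, had a median of 6.04.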

How the data were processed

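Total RNA of mouse heart and liver, flash-frozen or FFPE, was extracted with Trizol and sheared by sonication, after removal of paraffin for FFPE tissue, per the labels' protocols. The submitters' processing notes name HISAT2, featureCounts, limma and the build mm10, without their order or settings. The deposited values are log2 CPM with 0.5 reads added, over library sizes multiplied by a scaling factor. Whole reads were recovered from them within a tolerance of 1e-06 and served for depths, shares and bounds. For alignment filters, strand setting and multiply mapped reads no source used here gives a value.

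The deposited log2 values were fitted with limma 3.58.1 in R 4.3.3 (organ plus preservation, trended variance, 1 residual degree of freedom) on genes above 0 in at least 2 of the 4 libraries, with Benjamini-Hochberg adjustment over all 13377. The procedure was tested on simulated data, where with 1 residual degree of freedom more false calls than the nominal rate occurred when few genes differed. The members, the gene lists and the 29 gene pairs were chosen with earlier results of these data known.

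Genes were named by rule: the 15 largest differences in each direction, both genes of each pair, up to 4 members of each list with the largest differences, the sex-linked list, the 5 largest opposite differences between preparations and 6 abundant genes with similar levels. Further list members, given as exceptions or examples, were chosen after their values were seen. Gene spans and promoters come from RefSeq, build GRCm38.p6, and exon lengths from the GENCODE mouse annotation. Exon lengths were matched for 94.5% of tested genes. Alternatives covered scaling, filter, pseudocount, variance model, the samples fitted, the block and each library left out. The intervals of fitted differences come from the limma spread between libraries, which leans on the trend over all genes. Read floors cover counting error only, since reads carry no molecular identifiers. Some list members and 2 of the gene pairs are counted but not reported here by name.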

Additional observations from a re-analysis of the deposited data

Results flagged for a closer look

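The heart minus liver difference had opposite signs in the frozen and FFPE libraries, each above 1 in size, for the 6 genes given here. With 1 library per organ and preparation, whether the 2 differences differ was not tested. Bmp10, a ligand secreted by atrial cells, was at −4.73 in frozen and 4.99 in FFPE libraries, with 0 and 706 reads in frozen and FFPE heart and 13 and 24 in liver. Xist was at 1.12 in frozen libraries, on 7 and 3 reads, and at −2.24 in FFPE libraries. The small RNA genes n-R5s136, Rnu1a1 and Snord95, which encode a 5S ribosomal RNA, a U1 spliceosomal RNA and a small nucleolar RNA, were at −2.05, −1.15 and −3.25 in frozen libraries and at 4.93, 3.96 and 1.72 in FFPE libraries. Adgrv1, an adhesion receptor, was at −4.50 in frozen and 1.10 in FFPE libraries.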

How the results depend on the processing

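The 7491 calls come from the fit of the 4 libraries. Each of these was also left out in turn, in fits that used all other libraries of the series, brain and kidney included. Such a fit leaves 1 library of that organ. Genes higher in heart numbered 3679, and 6041 without the filter on low values, where all 27179 genes were tested. Without the replicate block for preservation, 6634 genes were called, 3284 higher in heart and 3350 in liver. Of the calls, 49.1% were higher in heart, beside 37.2% with plain read totals, 53.7% with median centring and 55.4% with quantile normalization. The fit over all 8 libraries called 97.3% of the same genes. Of the 7491 calls, 4936 kept direction and call in every fit that was run, leaving aside a stricter level filter. The named genes that follow were mostly chosen for large differences. Of 238 named genes that were called, 209 kept direction and call under each alternative run that tested them, and 29 did not under at least 1. With each library left out in turn, the difference of Dkk3 ran from −0.088 (without FFPE heart) to 4.81, that of Bmp10 from −4.31 (without FFPE heart) to 4.57 and that of Cux2 from −0.22 (without frozen liver) to 4.18, so each changed sign. In the frozen libraries alone Dkk3 was at −0.50. The cause was not tested. Depth limits genes near 3 reads, which stand for up to 0.292 CPM. The sizes of large differences also depend on the reads added. On log2(CPM + 5) the median was −5.45 for cytochrome P450 and −6.85 for secreted plasma proteins. It was 2.47 for cardiac ion channels and −2.43 for hepatic transcription factors. These medians were closer to each other than in the main fit, and the numbers of members called in these lists did not change.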

Other observations

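Major urinary protein genes, which encode pheromone carriers that male mouse liver secretes in quantity, took 0.964% and 0.630% of nuclear protein-coding reads in frozen and FFPE liver, on 60925 and 50377 reads, and 4 and 5 reads in frozen and FFPE heart. Copies of this family are nearly identical, so the sum is given rather than single genes. The 10 most abundant genes took 23.9% and 20.6% of nuclear protein-coding reads in frozen and FFPE heart and 17.7% and 14.9% in frozen and FFPE liver. The most abundant 335 and 472 genes held 50% of these reads in frozen and FFPE heart, and 296 and 398 genes did so in liver. Malat1, a nuclear noncoding RNA, took 0.561% of all reads in frozen heart and 0.511% in frozen liver, beside 1.5% in FFPE heart and 1.53% in FFPE liver.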
